A study of Rattus norvegicus with 5 samples.

Results

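Vim, Cdh2, Snai1 and Cd44 are genes that are read together when cells take on a mesenchymal state. They were chosen as a named set of 4 Ensembl gene IDs, ENSRNOG00000018087, ENSRNOG00000015602, ENSRNOG00000009594 and ENSRNOG00000006094 in that order, out of 15074 genes listed for all 5 libraries. All 4 members are in every library. The names came with the choice of genes, since the deposited tables list IDs without names.

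The cells were primary ventricular cells of wild type Sprague Dawley rats at postnatal day 2, kept as a culture of myocytes and non-myocytes together. Cultures received either Adeno-GFP, a virus that delivers a fluorescent marker, or Adeno-TBX18, which delivers a transcription factor of the embryonic heart. With each virus, 1 sample was collected at day 3 and another at day 14. A further culture received the TBX18 virus with 0.2 µM A83-01, an inhibitor of TGF-beta type I receptors, and is titled day 14. Its treatment label gives 3 days, so how long the inhibitor was present is not settled here. By its title the series addresses the reprogramming of ventricular myocytes to pacemaker cells. Each of the 5 groups had 1 library, and the labels give no promoter for either virus and no count of animals behind a culture. No difference below therefore has a replicate check, no test between groups was made, and every interval is a 95% interval for counting error only.

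In a transition toward a mesenchymal state, cells loosen epithelial junctions, rebuild their cytoskeleton and gain motility, and TGF-beta is a well known trigger. Snai1 encodes Snail, a zinc finger repressor that binds E-box sequences and shuts off E-cadherin. Vim encodes vimentin, the intermediate filament protein of fibroblasts and other mesenchymal cells. Cdh2 encodes N-cadherin, which replaces E-cadherin in many such transitions, but in the heart it is also the cadherin of the intercalated disc that joins one cardiomyocyte to the next. Cd44 encodes a cell surface receptor for hyaluronan that is found on leukocytes, fibroblasts and activated or migrating cells.

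RefSeq promoter windows of the GRCr8 build were found for 3 of the 4 members: Vim, Snai1 and Cd44. The 250 bases before the annotated start are shown because these genes are read together as one program, which makes their control sequences of interest side by side. Each is written 5′ to 3′ on the gene's own strand, at chr17:81577011-81577260 on the plus strand for Vim, chr3:176667226-176667475 on the plus strand for Snai1 and chr3:109699425-109699674 on the minus strand for Cd44. Capitals mark a TATA box in Vim and an E-box in Snai1.
Vim: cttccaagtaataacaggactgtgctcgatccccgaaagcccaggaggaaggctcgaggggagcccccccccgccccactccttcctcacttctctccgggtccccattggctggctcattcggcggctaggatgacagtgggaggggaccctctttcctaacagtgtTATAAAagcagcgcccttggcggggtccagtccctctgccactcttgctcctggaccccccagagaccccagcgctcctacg
Snai1: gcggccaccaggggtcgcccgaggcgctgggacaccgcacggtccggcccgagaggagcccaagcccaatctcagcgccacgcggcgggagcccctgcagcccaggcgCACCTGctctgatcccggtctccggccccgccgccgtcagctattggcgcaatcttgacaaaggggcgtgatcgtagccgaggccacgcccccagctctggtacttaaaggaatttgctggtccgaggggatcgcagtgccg
Cd44: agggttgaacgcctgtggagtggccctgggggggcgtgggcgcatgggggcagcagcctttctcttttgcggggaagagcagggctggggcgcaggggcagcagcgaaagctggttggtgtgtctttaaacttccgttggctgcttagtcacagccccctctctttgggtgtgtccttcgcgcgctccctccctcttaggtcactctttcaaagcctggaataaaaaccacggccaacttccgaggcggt

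Both strands were searched for 5 motifs: the T-box half-site AGGTGT, the E-box CAGGTG to which Snail binds, the SMAD element CAGAC, the AP-1 site TGANTCA and the TATA box TATAAA. An E-box followed by T also holds the T-box half-site. The Vim window held TATAAA on its own strand 82 bases before the start, and the Snai1 window held the E-box on the opposite strand, read as CACCTG, 142 bases before the start. The Cd44 window held none of the 5. Among 33469 windows of this length, 12.9% held the TATA box, 15.9% the E-box, 11.6% the T-box half-site, 42.9% the SMAD element and 6.34% the AP-1 site. GC content was 62.4% for Vim, 69.6% for Snai1 and 60.8% for Cd44, against a median of 51.2% over all windows. A match describes these letters and is not a measured binding site.

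Depth ranged from 104781421 to 202024199 unique molecular identifiers (UMIs, tags that each mark 1 captured RNA molecule) per library, and the median UMIs per barcode from 15610 to 28566. After barcodes under 500 genes and likely doublets were left out, 6048 to 7891 cells remained per library. Pairs of libraries shared 7 to 20 barcodes. EGFP was read in the 2 GFP libraries, where ZsGFP and hTBX18 had 0 UMIs in kept cells, and the 3 TBX18 libraries held ZsGFP and hTBX18 with at most 1 EGFP UMI. Day 14 tables held no cell under 1994 or over 5592 genes, while day 3 tables reached from 28 to 7760, so time and cell filter cannot be told apart.

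Clusters of all kept cells, made without the 4 genes and the virus features, joined into 2 compartments. Compartment 1 was defined as the one richer in EGFP at day 3: with each cell thinned to 5000 UMIs, 25.6% of its cells had an EGFP UMI against 2.20% in compartment 2. No table paired IDs with names, so cell type markers could not be read and neither compartment is called myocyte or stromal here. The label's split into myocytes and stromal cells is therefore unchecked. Compartment 1 held 59.0% and 51.5% of cells with GFP and TBX18 at day 3, and 33.2%, 16.0% and 34.3% with GFP, TBX18 and TBX18 plus A83-01 at day 14. Levels are given in CPM, the gene's UMIs over all UMIs of the cells of a compartment.

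The 4 genes divided between the compartments in the same way in all 5 libraries. Vim, Snai1 and Cd44 were higher in compartment 2, and Cdh2 was higher in compartment 1. Vim stood at 4035 CPM in compartment 2 of the GFP library at day 3 (4021 to 4049), and at 5027 CPM in the TBX18 library. At day 14 its compartment 2 level was 3177 CPM with GFP, 2477 CPM with TBX18 and 3677 CPM with TBX18 plus A83-01. In compartment 1 the same libraries, in that order, gave 209, 168, 282, 387 and 184.5 CPM. Every compartment 2 level of Vim lay above every compartment 1 level, by 6.41-fold (6.27 to 6.55) within the TBX18 library at day 14 and by up to 29.99-fold (29.5 to 30.5) within the TBX18 library at day 3.

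Cdh2 went the other way. Its compartment 1 levels were 364 CPM with GFP and 199 CPM with TBX18 at day 3, and 636, 682 and 410.4 CPM with GFP, TBX18 and TBX18 plus A83-01 at day 14. In compartment 2 they were 59.5, 57.5, 159, 212 and 119.7 CPM in the same order. Cdh2 was thus 6.11-fold (5.92 to 6.30) higher in compartment 1 of the GFP library at day 3 and 3.22-fold (3.15 to 3.29) higher in the TBX18 library at day 14. Compartment 2 of the TBX18 library at day 14, at 212 CPM, exceeded compartment 1 of the TBX18 library at day 3, at 199 CPM.

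Snai1 was close to absent from compartment 1 at day 3. It gave 75 UMIs over 4516 cells with GFP and 78 over 3144 cells with TBX18, which is 0.735 CPM (0.578 to 0.921) and 0.865 CPM (0.684 to 1.08). At day 14 compartment 1 stood at 4.45, 6.58 and 2.58 CPM with GFP, TBX18 and TBX18 plus A83-01. Compartment 2 held 26.6 and 24.1 CPM at day 3, then 38.4, 56.0 and 38.5 CPM. Snai1 was higher in compartment 2 by 36.2-fold (28.8 to 46.3) with GFP at day 3 and by 8.50-fold (7.18 to 10.1) in the TBX18 library at day 14.

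Cd44 differed least between compartments. Compartment 1 gave 1.63 CPM (1.39 to 1.89) with GFP and 5.72 CPM (5.24 to 6.24) with TBX18 at day 3. At day 14 it gave 4.83, 17.8 and 9.25 CPM with GFP, TBX18 and TBX18 plus A83-01. Compartment 2 gave 9.53, 11.9, 14.2, 27.7 and 19.9 CPM in the order of libraries used so far. The excess in compartment 2 ran from 5.86-fold (4.95 to 6.98) with GFP at day 3 to 1.55-fold (1.39 to 1.73) with TBX18 at day 14. Among all tested genes, 37.9% in the GFP library at day 3 were past 1.5-fold higher in compartment 2 and 26.9% past 1.5-fold lower. Those shares were 35.7% and 26.6% with TBX18 at day 3, and 37.2% and 22.3%, 33.1% and 22.0%, and 48.0% and 18.4% with GFP, TBX18 and TBX18 plus A83-01 at day 14. In each library 3 of the 4 members were past 1.5-fold higher and 1 lower.

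**Figure D1:**
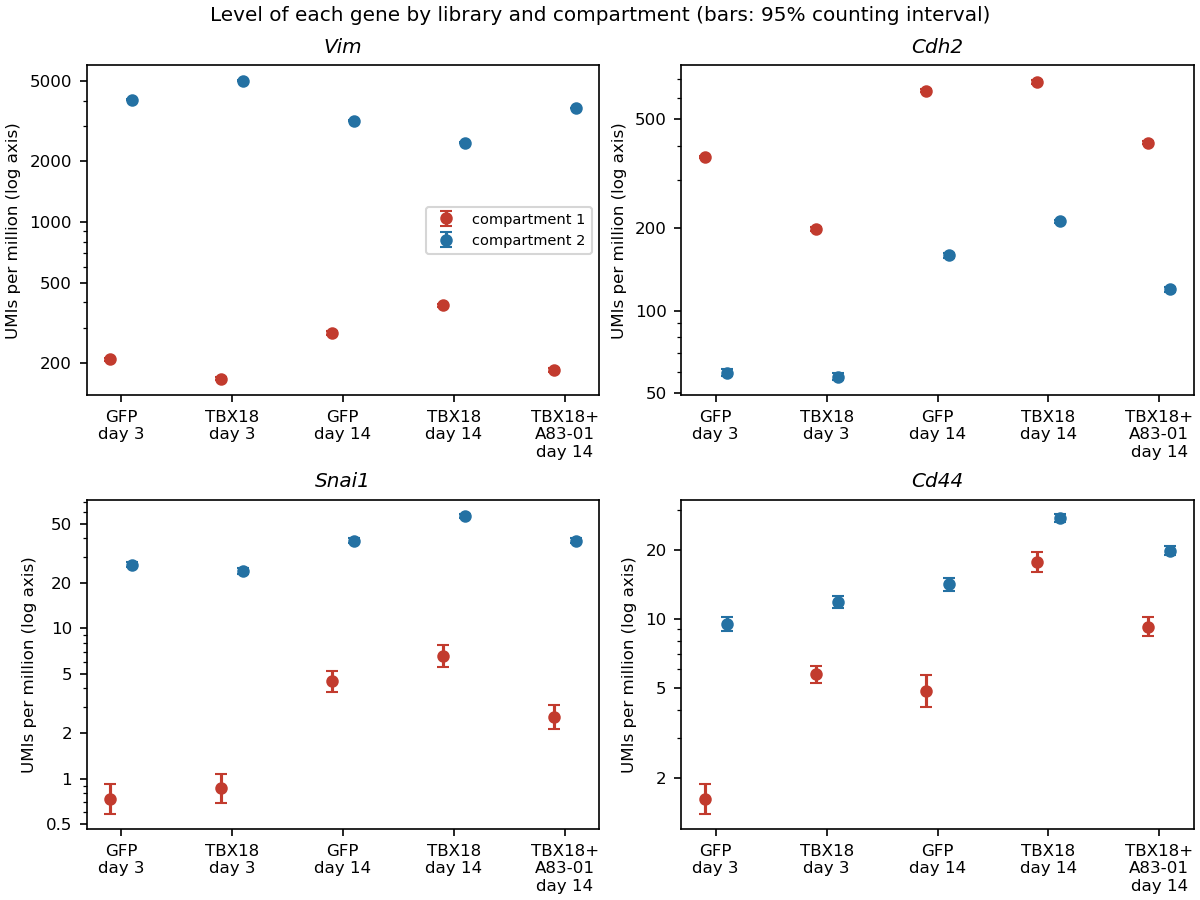
Level of Vim, Cdh2, Snai1 and Cd44 in CPM (log axis) in each of the 5 libraries, for compartment 1 (red) and compartment 2 (blue), with 95% counting intervals. Vim, Snai1 and Cd44 lie higher in compartment 2 and Cdh2 lies higher in compartment 1 in every library.

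The share of cells with at least 1 UMI, after thinning to 5000 UMIs, separated the genes further. Vim was read in 99.6% to 99.9% of compartment 2 cells, with a median of 11 to 25 UMIs per thinned cell. Cdh2 was read in 55.9% to 92.8% of compartment 1 cells and in 23.2% to 61.3% of compartment 2 cells. Without thinning, those ranges were 84.8% to 99.6% and 64.0% to 90.0%. Snai1 was read in 10.3% to 22.3% of compartment 2 cells and in 0.27% to 2.2% of compartment 1 cells. Cd44 was read in 4.3% to 10.1% of compartment 2 cells and in 0.64% to 8.0% of compartment 1 cells. Cdh2 and Vim therefore reached most cells of their higher compartment at this depth, while Snai1 and Cd44 were seen in a minority of either.

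Vim in compartment 1 was spread unevenly over cells. In the GFP library at day 3, 55.3% of thinned cells had 0 Vim UMIs, 23.9% had 1, 17.6% had 2 to 4 and 0.71% had 10 or more. In the GFP library at day 14, 77.3% had 0 and 3.49% had 10 or more, although the mean level was higher. The TBX18 library at day 14 had 54.9% at 0 and 5.78% at 10 or more. With A83-01 the share at 0 was 80.0%. Cdh2 was spread more evenly: the share of compartment 1 cells at 0 was 20.6% and 44.1% with GFP and TBX18 at day 3, and 7.23%, 7.84% and 16.0% at day 14.

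**Figure D2:**
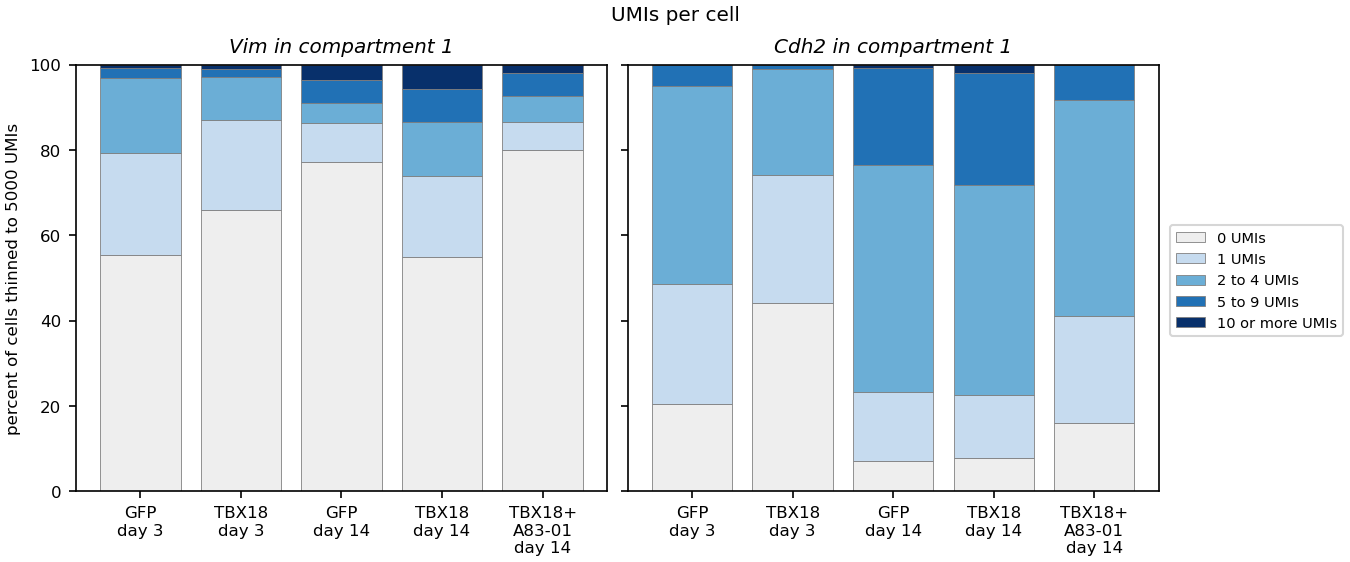
Percent of compartment 1 cells with 0, 1, 2 to 4, 5 to 9 or 10 and more UMIs of Vim (left) and Cdh2 (right) in each library, all cells thinned to 5000 UMIs. Vim at day 14 joins a large share of cells at 0, 77.3% with GFP and 80.0% with A83-01, to a small share at 10 or more, while Cdh2 is read in most cells.

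Some compartment 1 cells also carried the RNA of compartment 2. For each cell the 200 genes most restricted to compartment 2 were summed, and a cell was called mixed where that sum reached 10% of the compartment 2 median. This mark was set after the data were seen. Mixed cells made up 1.77% (80 cells) and 5.63% (177 cells) of compartment 1 with GFP and TBX18 at day 3, and 13.9% (279), 21.3% (269) and 13.2% (325) with GFP, TBX18 and TBX18 plus A83-01 at day 14. They held 20.6%, 39.5%, 93.0%, 74.7% and 88.0% of the compartment's Vim UMIs in that order, and 41.3%, 35.9%, 91.6%, 81.8% and 73.6% of its Snai1 UMIs. Their part in Cdh2 was close to their share of cells, from 1.93% to 19.4%. Cd44 lay between, from 5.42% to 45.3%.

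Mixed cells had a median of 30619 UMIs against 22282 in the others with GFP at day 3, and 22961 against 14537 with GFP at day 14. In the TBX18 library at day 3 the medians were 28563 and 29792. Barcodes that hold 2 cells, free RNA and single cells that express both sets of genes cannot be told apart here. Between 10 and 147 compartment 1 cells per library lay near the mark, at 8% to 12%, most of them in the TBX18 library at day 3. There the only compartment 1 cluster of at least 50 cells with a median past the mark was cluster 28, with 64 cells at 60.4%. Cluster 16, with 440 cells, had a median of 7.01%. How the mixed cells of that library divided between clusters was not counted.

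Without mixed cells, Vim in compartment 1 was 170 CPM (16923 UMIs) and 107 CPM (9149 UMIs) with GFP and TBX18 at day 3. At day 14 it was 24.3 CPM (629 UMIs) with GFP, 127 CPM (2037 UMIs) with TBX18 and 25.8 CPM (1071 UMIs) with TBX18 plus A83-01. These levels were 4.20%, 2.13%, 0.766%, 5.14% and 0.702% of the Vim level of compartment 2. The 200 restricted genes in the same cells stood at 1.72%, 2.88%, 1.72%, 3.50% and 1.47% of theirs as a sum. Taken one by one, the middle 90% of these genes ran from 0.319% to 6.12% with GFP at day 3, and from 0.515% to 8.83% with TBX18 at day 3. At day 14 it ran from 0.549% to 5.69% with GFP, from 1.41% to 9.70% with TBX18 and from 0.311% to 5.34% with A83-01. Vim lay inside that range in all 5 libraries, so expression by the remaining compartment 1 cells and RNA carried over from compartment 2 cannot be told apart. The 200 genes were picked as the most restricted ones, which makes them a low mark. They were also uneven within compartment 2. Cluster 19 at day 3, described below, stood at 271% of the compartment 2 median with GFP and 254% with TBX18. Cluster 23 at day 14 was at 140% and 104%, and the remaining clusters of at least 50 cells at 68.9% to 110%.

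Snai1 in these cells stood at 1.66%, 2.43%, 1.21%, 2.79% and 2.07% of its compartment 2 level, also inside the range of the restricted genes, so the same limit holds for it as for Vim. Cd44 stood at 16.5%, 44.6%, 28.7%, 55.5% and 29.6%, above the upper end of that range in every library. It was uneven over clusters. With GFP at day 14 the largest compartment 1 cluster, of 1293 cells, was at 5.52%, inside the range. Cluster 10 of that library, with 389 cells, was at 77.0% and cluster 14, with 56 cells, at 252.5%. The largest clusters of the other libraries were at 9.06% and 40.1% with GFP and TBX18 at day 3, and 56.7% and 27.7% with TBX18 and A83-01 at day 14. Cdh2 in compartment 2 also lay above the genes most restricted to compartment 1. In the clusters of compartment 2 with at least 50 cells it lay at 14.6% to 34.4% of the compartment 1 level, against 2.52% to 6.76% for those genes, with the exception of clusters 19, 23 and 31 described below. Both sets of restricted genes were picked in these data as the lowest, so a gene outside them tends to lie above them. For Cd44 and Cdh2 the comparison is therefore no test of expression.

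**Figure D3:**
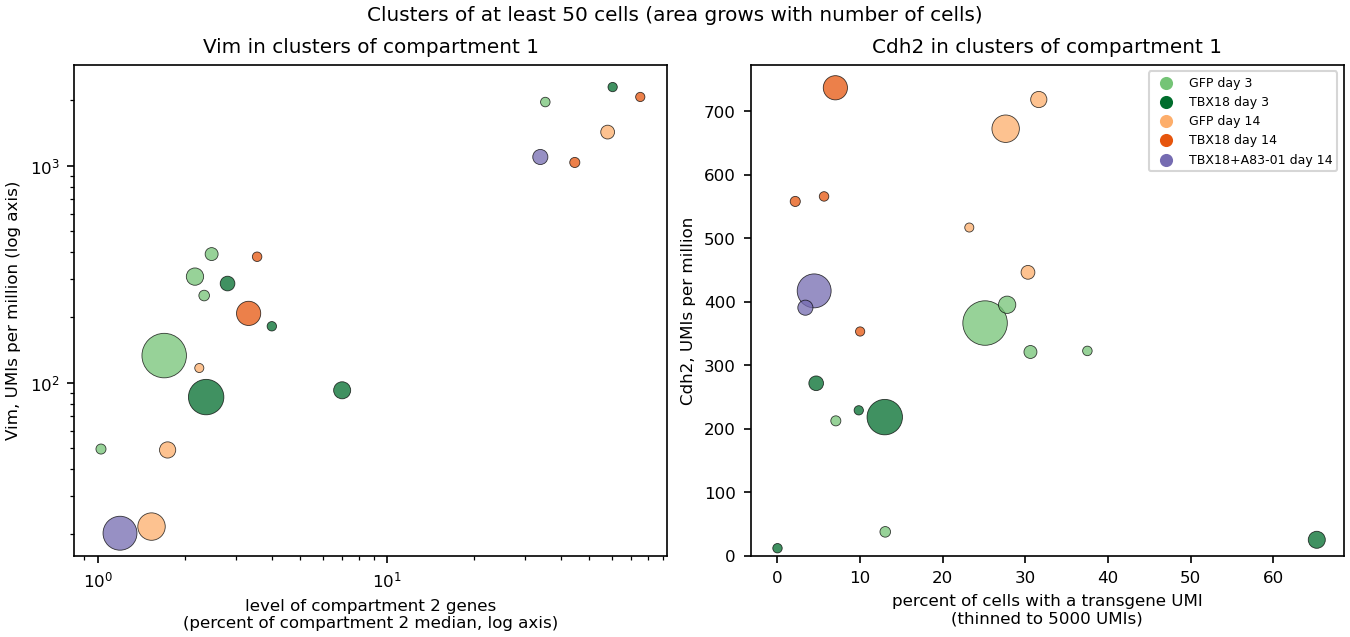
Clusters of at least 50 cells in compartment 1, 1 point per cluster and library with area growing with cell number. Left, Vim in CPM against the median level of the 200 compartment 2 genes, both on log axes: the 6 points past 10% on the horizontal axis hold Vim at 1036 to 2306 CPM. Right, Cdh2 against the percent of cells with a transgene UMI: cluster 16 of the TBX18 library at day 3 lies at 65.3% and 24.8 CPM.

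The first comparison set TBX18 against GFP at day 3. In compartment 1, Cd44 was 3.52-fold higher with TBX18 (2.95 to 4.21, 516 against 166 UMIs) and Cdh2 was 1.83-fold lower (1.80 to 1.86). Both kept their direction under every alternative tried. Vim was lower by 1.25-fold (1.22 to 1.27), but this value turned with the treatment of doublets: its log2 ratio was -0.32, -0.66 without mixed cells and 0.33 with no cell left out as a doublet. Snai1 differed by less than its counting interval, at a log2 ratio of 0.24 (-0.24 to 0.71). With 1 member past 1.5-fold higher and 1 lower, the background was 11.9% of 7846 genes higher and 12.8% lower. Cd44 and Snai1 were under the minimum mean of 5 CPM for genes in that background. The median of the 4 log2 ratios was -0.04, against -0.06 over all genes tested.

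In compartment 2 at day 3 none of the 4 passed 1.5-fold, where 2.85% of genes were higher and 5.55% lower. Vim was 1.25-fold higher (1.24 to 1.25) and Cd44 1.25-fold higher (1.14 to 1.38) with TBX18. Snai1 was 1.10-fold lower (1.04 to 1.17), and Cdh2 had a log2 ratio of -0.05 (-0.11 to 0.01), or 0.05 when scaled by median-of-ratios size factors. The median of the 4 was 0.13, against -0.09 over all genes. That scaling moved the share of higher genes among those past 1.5-fold from 34.0% to 47.3%. Over all cells of the library, Cd44 was 5.05 CPM with GFP and 8.73 CPM with TBX18, past 1.5-fold higher as were 5.7% of genes. Cdh2 was 232 and 130.1 CPM, past 1.5-fold lower as were 8.54% of genes.

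The Cdh2 difference of compartment 1 at day 3 was uneven over clusters. Cluster 6, with 2218 cells, stood at 218 CPM and cluster 14, with 301 cells, at 271 CPM. Cluster 16, with 440 cells, stood at 24.8 CPM, and 65.3% of its cells had a ZsGFP or hTBX18 UMI against 13.0% in cluster 6. The 200 genes most restricted to compartment 1 were at 40.8% of their median in cluster 16, so the low Cdh2 there came with low levels of that compartment's own genes. Cluster 27, of low depth with a median of 4573 UMIs, was at 11.5 CPM on 5 UMIs. With GFP at day 3 the largest compartment 1 cluster, of 3554 cells, stood at 366 CPM, above both cluster 6 and cluster 14.

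Within a library, cells in which the virus was read (EGFP in GFP libraries, ZsGFP or hTBX18 in TBX18 libraries) were then set against the other cells, on counts thinned to 5000 UMIs. In compartment 1 of the TBX18 library at day 3, Cdh2 was 102 CPM in 585 transgene-positive cells and 215 CPM in 2469 negative cells, a log2 ratio of -1.08 (-1.25 to -0.90). Vim was 87.9 CPM against 166 CPM, a log2 ratio of -0.92 (-1.11 to -0.73). The GFP library at day 3, the control for carrying a virus at all, had 1123 positive and 3265 negative cells. It gave 358 against 355 CPM for Cdh2, at 0.01 (-0.06 to 0.09), and 199 against 187 CPM for Vim, at 0.09 (-0.02 to 0.18). At full depth, where more cells count as positive, the TBX18 values at day 3 were -0.60 (-0.71 to -0.49) for Cdh2 and -0.43 (-0.55 to -0.30) for Vim. The GFP library at day 3 then gave 0.007 (-0.058 to 0.072) for Cdh2 and 0.199 (0.109 to 0.289) for Vim. Cluster 16, with 65.3% of its cells positive, falls in both groups, and the comparison was not run within single clusters. Vim in cluster 16 was 92.4 CPM, near the 85.95 CPM of cluster 6. Mixed cells, which held 39.5% of the Vim UMIs of this compartment, were included. Vim stood at 2306 CPM in cluster 28 and 287 CPM in cluster 14, with 9.84% and 4.68% of cells positive. What part these clusters or the mixed cells had in these ratios was not tested.

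Cdh2 in compartment 1 at day 14 was 557 CPM in 84 positive and 694 CPM in 1179 negative cells of the TBX18 library, at -0.32 (-0.51 to -0.13). With A83-01 it was 332 CPM in 120 positive and 424 CPM in 2335 negative cells, at -0.36 (-0.57 to -0.15). The GFP library at day 14 gave -0.07 (-0.15 to 0.01). Vim at day 14 was at -0.15 (-0.41 to 0.10) with TBX18 and -0.42 (-0.76 to -0.09) with A83-01. At full depth the Cdh2 values were -0.13 (-0.25 to -0.003) with TBX18 and -0.22 (-0.34 to -0.10) with A83-01, and the Vim value with A83-01 was -0.01 (-0.20 to 0.17). With GFP at day 14 the full-depth Cdh2 value was -0.074 (-0.146 to -0.002). Cd44 intervals spanned 0 in compartment 1 of all 5 libraries, on 6 to 13 UMIs in positive cells. At full depth, on 14 to 32 UMIs, they spanned 0 too, with ratios of 0.77 (-0.44 to 2.10) with GFP and -0.32 (-1.01 to 0.36) with TBX18 at day 3, and -0.28 (-1.21 to 0.62), 0.65 (-0.06 to 1.30) and 0.04 (-0.89 to 0.87) with GFP, TBX18 and A83-01 at day 14. Snai1 had 6 or fewer UMIs in positive compartment 1 cells called on thinned counts. In compartment 1 of the TBX18 library at day 3 the transgene-negative cells, at 215 CPM, were lower in Cdh2 than the negative cells of the GFP library, at 355 CPM. A cell without a virus UMI at this depth can still carry the virus.

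**Figure D4:**
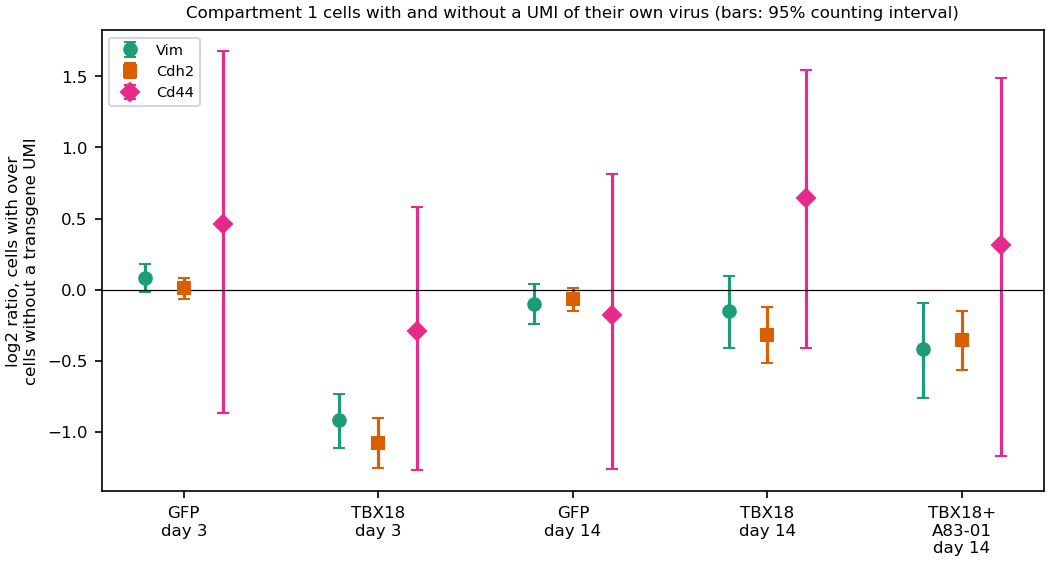
Log2 ratio of Vim, Cdh2 and Cd44 in compartment 1 cells in which the virus was read, over the remaining cells, by library, with 95% counting intervals. Vim and Cdh2 in the TBX18 library at day 3 lie at -0.92 and -1.08, and both genes lie between -0.098 and 0.085 in the GFP libraries. Cd44 intervals are wide and span 0 throughout.

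At day 14, Cd44 was higher with TBX18 than with GFP in both compartments. It was 3.69-fold higher in compartment 1 (3.05 to 4.49, 371 against 154 UMIs) and 1.95-fold higher in compartment 2 (1.81 to 2.11). The compartment 1 difference was uneven over clusters. Cluster 10 stood at 10.9 CPM with GFP and 15.7 CPM with TBX18. Cluster 14 was at 35.76 and 39.65 CPM, and cluster 20 at 7.05 and 15.6 CPM, in that order. The largest GFP cluster, cluster 11 with 1293 cells, was at 0.782 CPM. It was not among the larger clusters of the TBX18 library. What part these clusters had in the 3.69-fold ratio was not tested. Snai1 was 1.46-fold higher in compartment 2 (1.39 to 1.53), and Cdh2 was 1.33-fold higher there (1.30 to 1.36). Vim was 1.28-fold lower in compartment 2 (1.28 to 1.29). With 1 of 4 members past 1.5-fold in compartment 2, the background was 7.98% of 9084 genes higher and 2.37% lower. Scaled by median-of-ratios size factors these log2 ratios were 0.82 for Cd44, 0.39 for Snai1, 0.26 for Cdh2 and -0.51 for Vim, and the share of higher genes among those called moved from 77.1% to 57.1%. The median of the 4 was 0.48, against 0.14 over all genes.

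In compartment 1 at day 14, Cd44 was the 1 of 4 members past 1.5-fold, where 13.3% of 8802 genes were higher and 2.47% lower (84.3% of called genes higher by totals and 54.9% under median-of-ratios scaling). Cdh2 had a log2 ratio of 0.10 (0.07 to 0.13) that turned to -0.13 under that scaling. Vim, at 0.45 (0.41 to 0.50), depended on the cells counted. It was -0.03 with no cell left out as a doublet and 2.39 (2.26 to 2.52) without mixed cells, a 5.23-fold higher level with TBX18 (4.78 to 5.73), which is larger than the ratio of Cd44 in the same cells. The sum of the restricted genes in the same cells differed too, at 3.50% with TBX18 and 1.72% with GFP. Snai1 was 1.48-fold higher (1.16 to 1.88), and without mixed cells it rested on 25 against 12 UMIs, at a log2 ratio of 1.75 (0.70 to 2.88). Cd44 was 3.78-fold higher without mixed cells (3.00 to 4.80). The median of the 4 over all compartment 1 cells was 0.51, against 0.21 over all genes.

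The shift in cell composition moved the whole-library values. Over all cells Vim at day 14 was 2213 CPM with GFP and 2136 CPM with TBX18, and Cdh2 was 318 and 289 CPM, a log2 ratio of -0.14. With the compartments weighted as in the GFP library, the TBX18 library would give 369 CPM of Cdh2, a log2 ratio of 0.21. Cd44 was 11.1 and 26.1 CPM over all cells, and 24.4 CPM at the GFP weights. Snai1 was 27.1 and 47.9 CPM, and 39.5 CPM at the GFP weights. Over all cells 2 of 4 members, Snai1 and Cd44, were past 1.5-fold higher, against 9.45% of genes higher and 4.45% lower. By median-of-ratios scaling 47.7% of called genes were higher, against 68.0% by totals.

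**Figure D5:**
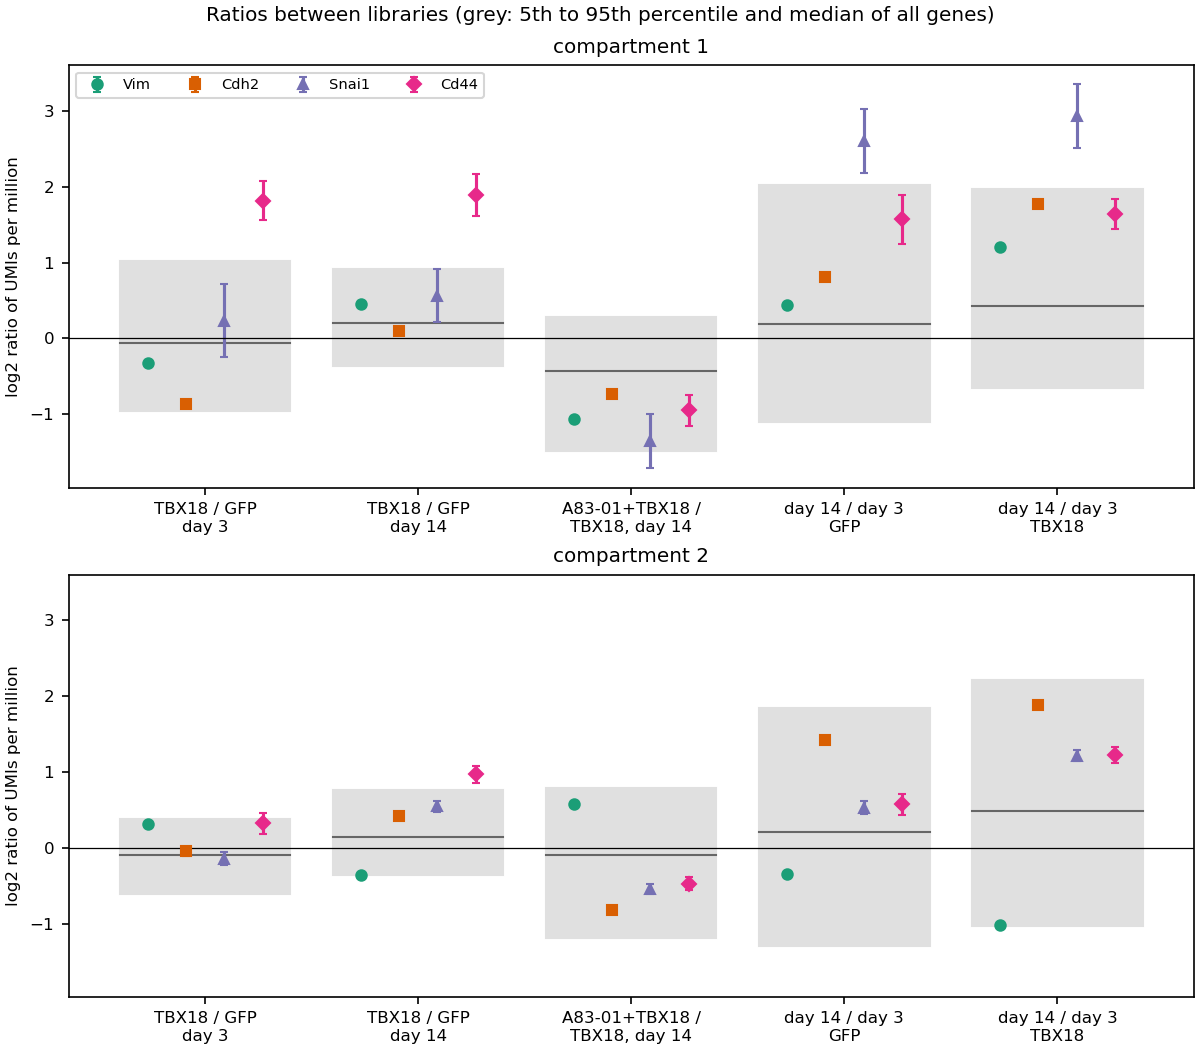
Log2 ratios of the 4 genes between libraries with 95% counting intervals, in compartment 1 (top) and compartment 2 (bottom). Grey boxes span the 5th to the 95th percentile of all tested genes and the grey line is their median. Cd44 lies above the grey box for TBX18 against GFP at both days in compartment 1 and at day 14 in compartment 2.

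The next comparison set TBX18 plus A83-01 against TBX18 alone at day 14. Cdh2 was lower with A83-01 in both compartments, by 1.66-fold (1.63 to 1.70) in compartment 1 and by 1.77-fold (1.73 to 1.81) in compartment 2. Cd44 was lower by 1.93-fold (1.68 to 2.22) and 1.39-fold (1.31 to 1.48), and Snai1 by 2.55-fold (1.99 to 3.28) and 1.46-fold (1.39 to 1.52). Vim was 2.10-fold lower in compartment 1 (2.03 to 2.16) and 1.48-fold higher in compartment 2 (1.48 to 1.49). In compartment 2, Snai1 at 38.5 CPM was close to the 38.4 CPM of the GFP library, while Cdh2 at 119.7 CPM lay below its 159 CPM and Vim at 3677 CPM above its 3177 CPM.

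All 4 members were past 1.5-fold lower in compartment 1, but 36.0% of 8539 genes were too, with 1.74% higher. Snai1 was under the minimum mean of 5 CPM for genes in that background. The median of the 4 was -1.01 and that of all genes -0.43. Under median-of-ratios scaling, with mixed cells included, that median was 0.08 and the share of higher genes among those called moved from 4.62% to 51.8%. Of the members, 1, Snai1, stayed past 1.5-fold under that scaling. The members then stood at -0.55 for Vim, -0.22 for Cdh2, -0.84 for Snai1 and -0.43 for Cd44. In compartment 2, 1 of 4 members was past 1.5-fold lower, Cdh2, against 16.2% of 9186 genes lower and 8.19% higher. There the median-of-ratios values were -0.69 for Cdh2, -0.41 for Snai1, -0.34 for Cd44 and 0.70 for Vim, which placed Vim past 1.5-fold higher as well, and 49.5% of called genes were higher against 33.5% by totals. By totals the median of the 4 was -0.51, against -0.10 over all genes.

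Without mixed cells, Vim in compartment 1 was 4.93-fold lower with A83-01 (log2 ratio -2.30, -2.41 to -2.19, and -1.75 under median-of-ratios scaling). The restricted genes in these cells were at 1.47% with A83-01 and 3.50% without it, and compartment 2 made up 65.7% and 84.0% of cells. What part carried-over RNA had in the Vim ratio was not tested. Cd44 without mixed cells was 2.60-fold lower (log2 ratio -1.38, -1.64 to -1.12), and Cdh2 1.72-fold lower. Snai1 without mixed cells rested on 33 UMIs with A83-01 against 25 without it, at a log2 ratio of -0.97 (-1.77 to -0.16). Median-of-ratios scaling without mixed cells gave -0.83 for Cd44, -0.23 for Cdh2 and -0.43 for Snai1, so that Snai1 was no longer past 1.5-fold. Over all cells Vim was 2136 and 2357 CPM, a log2 ratio of 0.14, and at the TBX18 weights 3106 CPM, a log2 ratio of 0.54. Over all cells Snai1 and Cd44, 2 of the 4, were past 1.5-fold lower, against 21.8% of genes lower and 7.9% higher. By median-of-ratios scaling 1 of them, Snai1, was past it, and 50.7% of called genes were higher against 26.6% by totals.

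Time in culture was compared within each virus, with the limits on the day 14 cell filter given above. Cdh2 was higher at day 14 in both compartments with both viruses. With GFP it was 1.75-fold higher in compartment 1 (1.72 to 1.78) and 2.68-fold in compartment 2 (2.59 to 2.77). With TBX18 it was 3.43-fold higher in compartment 1 (3.36 to 3.51) and 3.69-fold in compartment 2 (3.58 to 3.80). Snai1 and Cd44 in compartment 2 were 1.44-fold and 1.49-fold higher with GFP, and both 2.32-fold higher with TBX18. Vim in compartment 2 was 1.27-fold lower at day 14 with GFP (1.26 to 1.28) and 2.03-fold lower with TBX18 (2.02 to 2.04), so that Vim and the other 3 genes had opposite signs there.

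These counts stand against a large background. With GFP, 35.0% of 8743 genes were past 1.5-fold higher in compartment 2 at day 14 and 20.2% lower, where 1 of 4 members was higher. With TBX18, 45.9% of 8850 genes were higher and 14.0% lower, where 3 of 4 members were higher and Vim lower. In compartment 1 the shares higher were 27.4% with GFP and 40.2% with TBX18, where 3 and 4 members were higher, and the shares lower were 14.1% and 6.08%. Of those members, Snai1 with both viruses and Cd44 with GFP were under the minimum mean of 5 CPM for that background. Over all cells 31.1% and 42.4% of genes were higher and 15.8% and 12.4% lower, where 2 and 3 members were higher. The median of the 4 in compartment 2 was 0.55 with GFP and 1.22 with TBX18, against 0.20 and 0.48 over all genes. Under median-of-ratios scaling the share of higher genes among those called in compartment 2 moved from 63.4% to 41.9% with GFP and from 76.7% to 43.2% with TBX18. In compartment 1 it moved from 65.9% to 35.1% and from 86.9% to 40.4%, and over all cells from 66.3% to 39.8% and from 77.4% to 43.9%. Each direction named here for Cdh2, Snai1, Cd44 and compartment 2 Vim held under that scaling.

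In compartment 1 the sign or size of the difference between days in Vim and Snai1 changed when mixed cells were left out. Vim with GFP was 1.35-fold higher at day 14 over all compartment 1 cells and 6.97-fold lower without mixed cells (log2 ratio -2.80, -2.92 to -2.69). Snai1 with GFP was 6.06-fold higher over all cells of the compartment, on 142 against 75 UMIs, and at a log2 ratio of 0.07 (-0.98 to 1.02) without mixed cells, on 12 against 44. With TBX18, Snai1 was 7.61-fold higher over all cells of the compartment and 2.66-fold higher without mixed cells (1.58 to 4.39), on 25 against 50 UMIs. With TBX18, Vim was 2.31-fold higher over all cells and 1.19-fold higher without mixed cells (1.13 to 1.25), where median-of-ratios scaling gave a log2 ratio of -0.23. Cdh2 and Cd44 kept their direction: without mixed cells Cdh2 was 1.86-fold and 3.53-fold higher at day 14 with GFP and TBX18, and Cd44 2.58-fold and 2.89-fold.

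Within compartment 2 the members picked out different clusters. In cluster 19 at day 3, 264 cells with GFP and 132 with TBX18, Cd44 reached 41.6 and 70.4 CPM, against 3.63 to 24.4 CPM and 3.16 to 22.7 CPM in the other clusters of at least 50 cells. The same cells had 7.30 and 4.14 CPM of Cdh2, 1.62 and 1.38 CPM of Snai1, and Vim at 1604 and 2259 CPM, in each case the lowest of compartment 2 in that library. At day 14, cluster 23, with 161 cells under GFP and 68 under TBX18, reached 149.9 and 271.8 CPM of Cd44 with 33.3 and 37.4 CPM of Cdh2 and 1.59 and 3.11 CPM of Snai1. Vim in cluster 23 was the lowest of compartment 2 with GFP, at 1724 CPM, and the highest with TBX18, at 3293 CPM. In clusters 19 and 23, Cdh2 was 2.01% to 5.47% of the compartment 1 level, against 3.33% to 5.74% for the genes most restricted to compartment 1. Cells high in Cd44, and low in Snai1 and Cdh2 for compartment 2 of their library, were thus present at both days, in clusters left unnamed.

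Cluster 31 of the TBX18 library at day 14 joined the other pattern. Its 88 cells held 481 CPM of Cdh2 (392 UMIs), 93.3 CPM of Snai1 (76 UMIs) and 212 CPM of Cd44 (173 UMIs), with Vim at 2175 CPM and 6.82% of cells positive for the transgene. Cdh2 and Snai1 were the highest of any compartment 2 cluster of that library, where the other clusters ran from 37.4 to 234 CPM for Cdh2 and from 3.11 to 67.6 CPM for Snai1. Cell depth was low, at a median of 8673 UMIs against 13139 to 20004 in the other clusters. The compartment 1 genes were at 3.63% of their median in these cells, near the 2.87% to 3.98% of the other clusters of that compartment.

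Single cells were read for pairs of members. Over thinned cells of a library and compartment, Spearman's rho between 2 members ran from -0.138 to 0.167. In compartment 2 of the TBX18 library at day 14, 13.8% of 6623 cells had both Cdh2 and Snai1, where the product of the shares was 13.7%. Cd44 and Snai1 were read together in 0.29% of 3086 compartment 2 cells with GFP at day 3, against 0.54% by the product. In compartment 1 at day 14 Vim and Snai1 were read together more often than the product of their shares, in 0.997% of cells against 0.328% with GFP, 1.90% against 1.00% with TBX18 and 0.774% against 0.244% with A83-01. Vim and Cd44 were read together in 5.38% against 3.61% with TBX18 and 1.91% against 0.774% with A83-01. The mixed cells, which held most of the Vim and Snai1 UMIs there, are included in these shares. With counts this sparse a weak correlation is no finding.

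Likeness was measured as Pearson's r of log2(CPM + 0.5) over the 10 profiles (5 libraries by 2 compartments), centred within each compartment, among 4965 genes of at least 20 CPM. The profiles share libraries and depth, and r is a description. Among the members Snai1 was nearest to Cdh2, at r = 0.811, where 74.4% of all genes were less like Cdh2. With Cd44 it was at 0.775, where 95.2% of all genes were less like Cd44. Both were low for this measure: Snai1 in compartment 1 ran from 0.735 to 6.58 CPM, with mixed cells included. Cd44 was under 20 CPM in every profile except compartment 2 of the TBX18 library at day 14, at 27.7 CPM. Vim was at 0.376 with Snai1, 0.125 with Cd44 and 0.013 with Cdh2. The gene most like Cdh2 was ENSRNOG00000009006, at 0.993, and the one most like Cd44 was ENSRNOG00000013492, at 0.974, with names not paired in the tables.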

How the data were processed

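Single-cell RNA was read from 5 samples of cultured cells with a droplet-based kit that tags the 3' end, per the labels' protocols. The submitters' processing notes name STAR 2.7.8a, Partek and the build Rnor_6.0 without giving their roles. The counting program, annotation and cell filters are not given in the sources used here. For day 3 the authors deposited estimated counts (UMIs per gene and cell), judging from the values, of which 99.7% were whole within 0.05. For day 14 they are log2 values as deposited, log2 of CPM plus 1 within a cell. After the log was undone, cell sums lay between 999991 and 1000009, and UMIs were recovered by taking a cell's most common nonzero value as 1 UMI, which made 99.7% of values whole. The values of the 4 genes held no fraction. The design had assumed counts throughout.

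Of 17060 Ensembl IDs, 0 matched the gene table used here (GRCr8), so planned cell type markers and pathway lists were not applied. Cells with at least 500 genes were kept, and those in the top 6% of Scrublet scores were left out, because the automatic threshold marked at most 0.0615% of cells outside the TBX18 library at day 3 and 2.73% there. Joint clustering used 2000 variable genes, 30 principal components, 20 neighbours and Leiden resolution 1 (scanpy 1.11.5, leidenalg 0.10.2). It gave 33 clusters, of which 16 were at least 90% from 1 library, holding 74.3% of cells, and their profiles were joined by average linkage into 2 compartments.

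Sums carry exact Poisson intervals, ratios exact intervals given their total, and shares Clopper-Pearson intervals. A gene was called past 1.5-fold by totals. Background shares use genes whose mean reached 5 CPM, with a pseudocount of 0.5 CPM. Depth is given in the report. The rule for named genes takes the 4 members always, and for likeness the highest r. The members, lists and alternatives were chosen with earlier results of these data known, and the mixed-cell mark and the compartments after the tables were seen.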

Additional observations from a re-analysis of the deposited data

Results flagged for a closer look

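Vim had opposite signs in the 2 compartments in each of the 5 comparisons, and the difference was not tested, since each group had 1 library. The log2 ratios in compartments 1 and 2 were -0.318 and 0.317 for TBX18 over GFP at day 3, and 0.453 and -0.359 at day 14. They were -1.067 and 0.57 for A83-01 with TBX18 against TBX18 alone. For day 14 against day 3 they were 0.435 and -0.345 with GFP and 1.206 and -1.021 with TBX18. Without mixed cells the compartment 1 value changed sign in 1 of the 5, to -2.80 for time with GFP. With no cell left out as a doublet it was 0.325 for TBX18 at day 3 and -0.033 at day 14.

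The TBX18 against GFP ratio of Vim also changed sign between the days, from -0.318 to 0.453 in compartment 1 and from 0.317 to -0.359 in compartment 2. Cdh2 in compartment 1 went from -0.871 at day 3 to 0.103 at day 14, and Snai1 in compartment 2 from -0.143 to 0.544. These differences were not tested either.

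Barcodes under 500 genes, left out of every comparison, also held these RNAs. The 731 such barcodes of the GFP library at day 3 held 100 UMIs of Vim (19.2 CPM) and 45 of Cdh2 (8.63 CPM). The 292 of the TBX18 library at day 3 held 71 UMIs of Vim (24.0 CPM) and 7 of Cdh2 (2.36 CPM). Kept cells of those libraries stood at 1864 and 2531 CPM of Vim.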

How the results depend on the processing

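No paired analysis was possible because each group had 1 library. Of 120 log2 ratios, 106 kept their direction under every alternative run. Ratios between libraries or compartments had 9 alternatives each, and ratios of transgene-positive over negative cells had 1, so the count pools unlike checks. For the number of members past the fold, A83-01 against TBX18 in compartment 1 gave 4 by totals, 1 under median-of-ratios scaling and 2 at 2-fold. In compartment 2 it gave 1 by totals, 2 under median-of-ratios scaling, without the 50 highest genes in the total and with cells thinned to 10000, and 0 at 2-fold. Over all cells it gave 2, then 1 under median-of-ratios scaling and without the 50 highest genes, and 0 at 2-fold. TBX18 against GFP at day 14 in compartment 1 gave 1, and 3 with cells thinned to 10000, without mixed cells and without mixed clusters. At 2-fold, the same comparison gave 0 in compartment 2 and 1 over all cells, from 1 and 2. At 2-fold, day 3 gave 1 in compartment 1 and 0 over all cells, from 2 each. Without mixed cells and without mixed clusters, day 3 gave 3 in compartment 1, as Vim joined as lower. Time with TBX18 in compartment 1 gave 3 without mixed cells, from 4. Time with GFP in compartment 2 gave 1, and 2 in the day 14 range of genes and UMIs, under median-of-ratios scaling and without the 50 highest genes. Calling the transgene at full depth turned Snai1 in positive over negative compartment 1 cells from -0.732 to 0.319 with GFP and from 0.696 to -0.705 with TBX18 at day 14, on 3 to 26 UMIs a group. The cause was not tested. Leaving out mitochondrial genes, dividing cells and gating by markers were not run, as they need gene names.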
